A study of Mus musculus with 24 samples.

Results

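The expression of lipid-associated macrophage genes was compared between young and aged mice in 4 tissues. The set held 9 of the 22911 gene symbols that the array probes could be matched to: Gpnmb, Trem2, Tyrobp, Lgals3, Itgax, Cd68, Cd63, Spp1 and Cd9. Each gene was chosen by name and was represented in each tissue by its brightest probe. The set was chosen with the kidney in view, where Gpnmb was among the largest rises, so the kidney values are given here as a description and were not tested. Male C57BL/6J mice aged 10 weeks (10W) or 90 weeks (90W) gave RNA of the liver, the lung, the kidney and white adipose tissue (WAT), with 3 mice per age and tissue and 24 arrays in all. All mice carried the same strain label and no label gives a treatment. The labels do not say which fat depot was taken, or whether 1 mouse gave several of the tissues. The aged livers are numbered 1, 2 and 4.

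Lipid-associated macrophages are macrophages that gather where dying cells or excess lipid must be cleared, as in expanding fat, steatotic liver and atherosclerotic plaques. Their program is tied to TREM2, a surface receptor that binds lipids and apoptotic cells and signals through the adaptor TYROBP (DAP12), which recruits the kinase SYK. GPNMB is a transmembrane glycoprotein of macrophages and melanocytes that is induced when lysosomes are loaded with lipid. Galectin-3 (Lgals3) and osteopontin (Spp1) are secreted by these cells, ITGAX (CD11c) is an integrin chain also found on dendritic cells, and CD68, CD63 and CD9 are a lysosomal glycoprotein and a pair of tetraspanins. Several of these genes are also expressed outside macrophages: Spp1 by kidney tubules and bile ducts, Cd63 and Cd9 by most epithelia, and Lgals3 by collecting duct and airway cells. In a whole tissue, more cells of a type and more RNA per cell cannot be told apart.

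The sequences around the start sites of the genes were read from RefSeq (GRCm38.p6), in windows of 250 bases before to 50 after each start. The table held 8 of the 9 genes, in 9 entries. The windows were searched on both strands for GAGGAA (the core bound by the macrophage factor PU.1 and other ETS factors), CATGTG and CACGTG (E-boxes read by MITF and TFEB) and TGANTCA (bound by AP-1). CACGTG and TGANTCA read the same on both strands, and no matches in the set overlapped each other. TGANTCA stood in the windows of 4 of the 8 genes, against 7.81% of the 32851 promoters of the table, and GAGGAA also in 4 of the 8, against 28.3%. CATGTG stood in 1 of the 8, that of Cd9, against 14.2%, and CACGTG in 0 of the 8, against 7.15%. The counts are over genes, whereas the shares are over promoter entries, 32851 for 27025 symbols. A match is only a description of letters, and shared regulation was not tested. The matches of TGANTCA were in Gpnmb, Trem2, Itgax and Cd68, which holds 2, and they are printed below in capitals within 30 bases on the gene's strand:
Gpnmb, chr6:49036514-49036543, plus strand: gccaggggcaagTGACTCAtgagcacgagt
Trem2, chr17:48346380-48346409, plus strand: cttctccctcctTGAATCAcagcgcctacc
Itgax, chr7:128129482-128129511, plus strand: ccccacctcctcTGAGTCAcgctgacaact
Cd68, chr11:69666302-69666331, minus strand: gtaagttccgtgTGAGTCAgctgcctcatt
Cd68, chr11:69666177-69666206, minus strand: agctgaggtgtcTGAGTCAggtttggggtg
The match began at base 9 after the start in Gpnmb, and 9 and 56 bases before it in Trem2 and Itgax. In Cd68 the matches began 149 and 24 bases before the start. The 250 bases before the start of Gpnmb and Trem2, the pair with the largest age differences in the liver and kidney, are given next, with matches of the searched motifs in capitals:
Gpnmb, chr6:49036268-49036517, plus strand: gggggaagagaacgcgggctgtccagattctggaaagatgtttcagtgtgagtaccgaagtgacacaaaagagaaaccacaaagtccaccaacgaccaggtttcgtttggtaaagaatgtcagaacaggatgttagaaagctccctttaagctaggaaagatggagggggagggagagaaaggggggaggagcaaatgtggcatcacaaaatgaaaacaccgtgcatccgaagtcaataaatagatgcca
Trem2, chr17:48346151-48346400, plus strand: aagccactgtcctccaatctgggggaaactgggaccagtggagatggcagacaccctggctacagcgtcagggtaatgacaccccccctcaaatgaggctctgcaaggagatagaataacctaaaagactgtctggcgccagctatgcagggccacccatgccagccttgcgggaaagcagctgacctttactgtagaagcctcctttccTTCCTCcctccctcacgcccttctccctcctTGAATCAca
The Trem2 sequence holds a match of GAGGAA on the other strand, which reads TTCCTC here, 40 bases before the start, and TGAATCA. The stretch before the Gpnmb start holds no match of the 4 motifs.

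Values are log2 of the processed signal minus the 75th percentile of the same array, so that 0 is the level of that percentile. Its median signal was 289 in young and 436 in aged livers, and 583 and 844 in the kidneys. In the lung it was 863 and 862, and in WAT 763 and 704. The 9 genes passed the filter on dim probes in every tissue (3 or more of the 6 arrays had to be called well above background). Saturated spots numbered 0. In the kidney Gpnmb passed through the aged mice alone, and in the liver it was well above background in 1 of 3 young and 3 of 3 aged mice, so these entries could hardly have failed to differ. The share of probes called well above background ran from 58.6% to 71.1% over the arrays, and arrays of a group correlated between 0.942 and 0.995. Each tissue had a slide of its own with both ages on it. The summed signals of hepatocyte, lung epithelium, kidney tubule and adipocyte markers are given as multiples of the 75th percentile. They were at least 2709, 1481, 289 and 255 in the tissue of that label. In the other tissues they were at most 211, 0.462, 1.80 and 13.3. The hepatocyte sum reached 7.97 in the young and 211 in the aged lungs, and the ages overlapped. The adipocyte sum was 5.46 to 13.3 in the young and 0.558 to 1.41 in the aged lungs. Of the 4 adipocyte markers 2 were lower in the aged lungs (adjusted p under 0.05 by limma), and 0 of 3 hepatocyte markers passed. The part of these signals in the lung age differences was not tested.

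In the aged liver, 7 of the 9 genes rose by the test and 8 of 9 were higher in every aged than in every young mouse, while 0 fell (0 also at an unadjusted p under 0.05 by limma). Over all genes tested in the liver 10.5% rose and 17.0% fell, and 16.8% were higher and 33.1% lower in every aged mouse. The share that fell depends on the scaling: with spike-in spots it went from 4749 to 801 of 27905 genes, and 8 of the 9 genes then rose. The median log2 difference was 2.37 for the 9 genes against -0.20 for all genes. The receptor gene Trem2 rose most among those measured in every mouse. Trem2 stood at -2.09, -3.01 and -0.64 in the young livers and at 3.35, 3.09 and 1.83 in the aged. The groups were far apart, and the difference was 4.67 ± 0.64 (SE, n = 3 mice per age; 25.4-fold; adjusted p = 0.0053 by limma). Tyrobp, its adaptor, stood at 2.80, 3.14 and 2.49 in the young and 4.92, 5.44 and 4.60 in the aged, a difference of 2.18 ± 0.27 (adjusted p = 0.0039 by limma). Gpnmb was at -6.67, -6.64 and -2.75 in the young and at -0.10, 2.07 and -1.74 in the aged livers. The spread within each age was the widest of the 9 genes in the liver. The difference was 5.43 ± 1.29 (adjusted p = 0.025 by limma), but 2 of the 3 young livers were not above background, so its size rests on dim signals and was 3.26 with normexp background correction. Without Gpnmb the count is 6 of the other 8 genes.

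**Figure D1:**
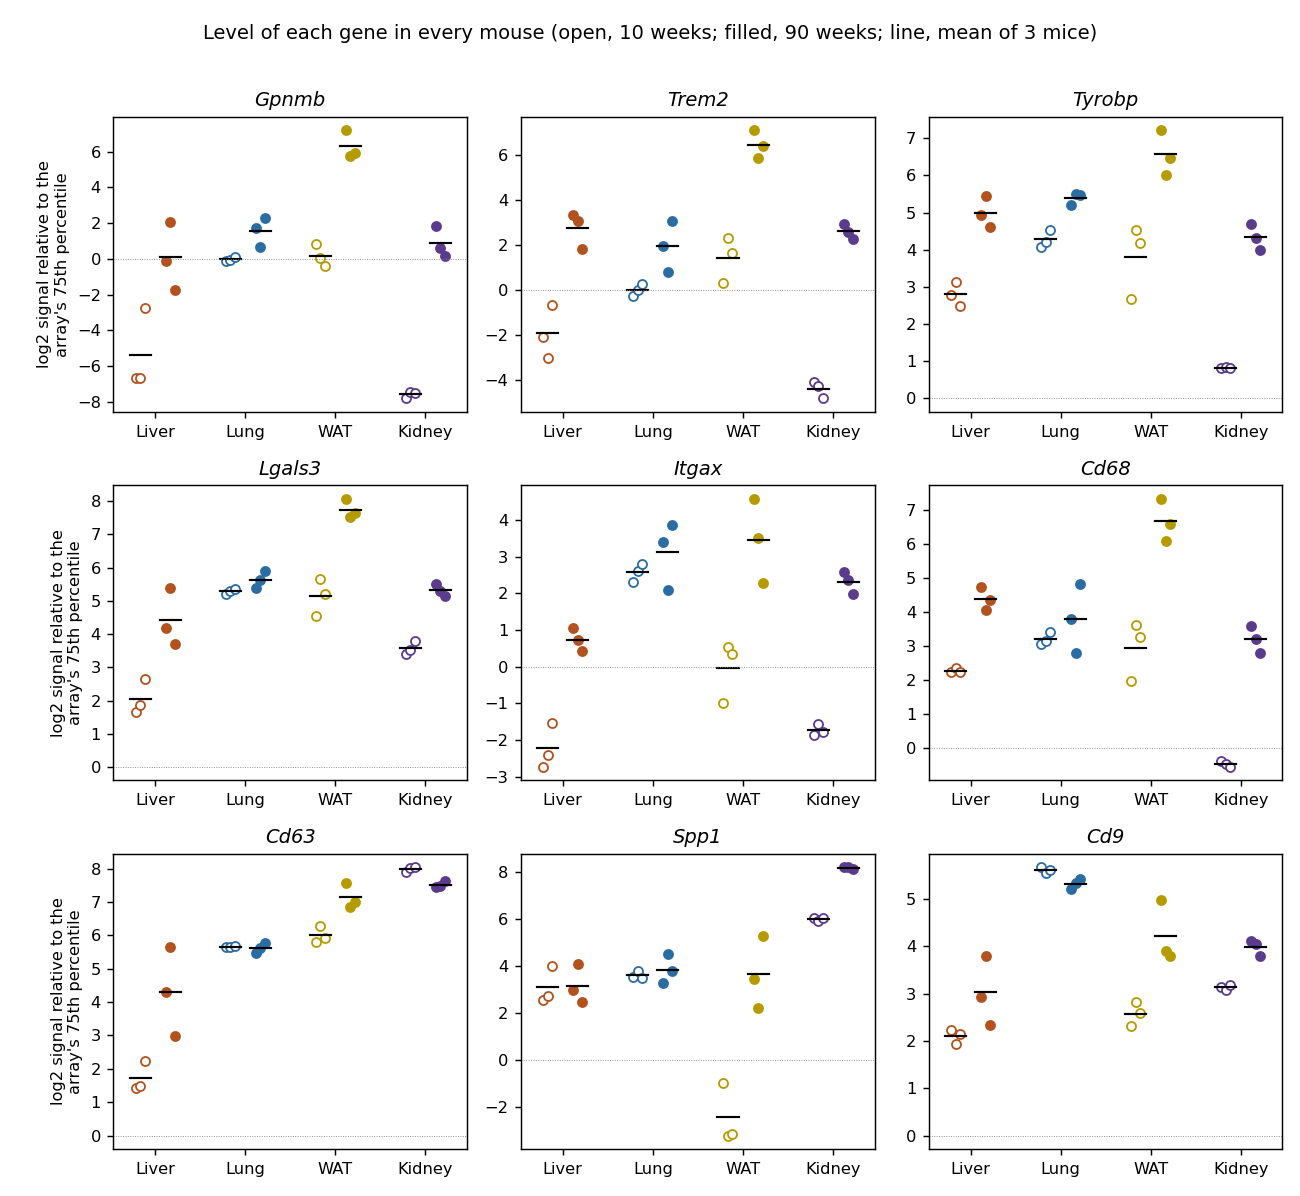
Level of each gene in every mouse, as log2 signal relative to the 75th percentile of the array, by tissue; open points are 10-week and filled points 90-week mice, and lines are means of 3 mice. Aged WAT holds the highest levels of Gpnmb, Trem2, Tyrobp, Lgals3 and Cd68, aged livers spread widely for Gpnmb and Cd63, and Spp1 is highest in the kidney at both ages.

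The other genes that rose in the liver did so by less than Trem2 and Gpnmb. Itgax rose from -2.73, -2.40 and -1.54 to 1.06, 0.74 and 0.43, a difference of 2.97 ± 0.33 (adjusted p = 0.0030 by limma). Cd68, a lysosomal membrane protein of phagocytes, rose from 2.24, 2.35 and 2.25 to 4.73, 4.08 and 4.36, a difference of 2.11 ± 0.20 (adjusted p = 0.0021 by limma). The young livers had an SD of 0.06 for Cd68, the smallest of the 9 genes there. Lgals3 differed by 2.37 ± 0.46 (adjusted p = 0.014 by limma) and the tetraspanin Cd63 by 2.60 ± 0.62 (adjusted p = 0.026 by limma). Aged livers ranged from 2.99 to 5.63 for Cd63, and the young ones from 1.42 to 2.24. Cd9, a tetraspanin partner of Cd63, was higher in every aged liver than in every young one, by 0.93 ± 0.36, and did not pass the test (adjusted p = 0.089 by limma). Spp1 stood at 2.57, 2.71 and 4.01 in the young and 2.96, 4.08 and 2.48 in the aged livers, so that the groups overlapped (difference 0.08 ± 0.52, adjusted p = 0.92 by limma).

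The calls in the liver leaned on single mice. Without young liver 1 or young liver 2, 4 of the 9 genes passed: Trem2, Tyrobp, Itgax and Cd68. Gpnmb did not pass without aged liver 1 or aged liver 2 either (differences 5.52 and 4.44), nor Cd63 without aged liver 1 (2.60). Aged liver 2 was the highest of the aged livers for 6 of the 9 genes and stood apart by neutrophil genes: S100a9, a calcium-binding protein of neutrophils, was at 4.26, 9.59 and 3.57 in the aged livers. Summed over the neutrophil list the signal was 1.94 to 7.40 times the 75th percentile in the young and 17.0 to 1292 in the aged livers. Every one of its 6 tested genes was higher in all aged than in all young mice, against 16.8% of all genes. The test called 1 of the 6, beside 10.5% of all genes. This was Ngp, a granule protein above background in 0 of 3 young livers, which could hardly have failed to differ. The part of these neutrophil genes in the values of the set was not tested. Without aged liver 2, Trem2, Tyrobp, Lgals3, Itgax, Cd68 and Cd63 still passed.

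In the aged WAT each of the 9 genes was higher in every aged mouse than in every young one, as was the case for 13.7% of all genes tested (15.0% were lower in every aged mouse). Of the 9, 5 rose by the test and 0 fell (0 also at an unadjusted p under 0.05 by limma), where 2.01% of all genes rose and 0.579% fell, with a median difference of 3.49 against -0.05 for all genes. Gpnmb stood at 0.82, 0.07 and -0.41 in the young and at 7.19, 5.76 and 5.92 in the aged WAT. The difference was 6.13 ± 0.49 (70.0-fold; adjusted p = 0.0053 by limma). It was the 7th largest rise among the 17215 named genes tested in WAT. Spp1, osteopontin, stood at -0.96, -3.20 and -3.12 in the young and at 3.44, 2.21 and 5.30 in the aged, a difference of 6.08 ± 0.95 (67.4-fold; adjusted p = 0.036 by limma). Spp1 was the 9th largest rise there, whereas in the liver the same probe showed overlapping groups. Trem2 rose from 0.34, 2.32 and 1.66 to 7.10, 5.85 and 6.39, by 5.01 ± 0.57 (adjusted p = 0.016 by limma).

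Lgals3 rose in WAT from 4.55, 5.65 and 5.22 to 8.07, 7.52 and 7.66, by 2.61 ± 0.32 (adjusted p = 0.019 by limma). Cd68 rose from 1.99, 3.62 and 3.27 to 7.34, 6.11 and 6.59, by 3.72 ± 0.51 (adjusted p = 0.026 by limma). Young WAT 1 was the lowest young mouse for both genes and aged WAT 1 the highest aged one. The other 4 genes missed the threshold: Itgax differed by 3.49 ± 0.68 (adjusted p = 0.061), Tyrobp by 2.77 ± 0.56 (0.066), Cd9 by 1.65 ± 0.35 (0.076) and Cd63 by 1.15 ± 0.26 (0.084 by limma). Gpnmb was the only one of the 9 that passed without each mouse in turn, and it was the single call left without young WAT 3, aged WAT 1 or aged WAT 3. Without young WAT 2 the calls were Gpnmb, Trem2 and Lgals3, and without aged WAT 2 they were Gpnmb, Trem2 and Spp1. With the replicate number as a block the 5 calls became 1, that of Gpnmb.

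In the aged lung 1 of the 9 genes rose by the test, Tyrobp, and 0 fell (3 were higher and 1 lower at an unadjusted p under 0.05 by limma). Of all genes tested 2.72% rose and 2.89% fell. Tyrobp stood at 4.08, 4.21 and 4.54 in the young and at 5.21, 5.49 and 5.47 in the aged lungs, a difference of 1.11 ± 0.15 (2.16-fold; adjusted p = 0.021 by limma). Without young lung 1, young lung 2 or aged lung 3 it did not pass (adjusted p = 0.093, 0.099 and 0.052 by limma), and with the replicate number as a block it had an adjusted p of 0.059 by limma. Gpnmb stood at -0.12, -0.06 and 0.11 in the young and at 1.73, 0.67 and 2.31 in the aged lungs (difference 1.59 ± 0.40, adjusted p = 0.078 by limma). Trem2 stood at -0.24, -0.00 and 0.26 in the young and at 1.97, 0.80 and 3.07 in the aged (difference 1.94 ± 0.56, adjusted p = 0.097 by limma). For both genes the ages did not overlap (in the set, 4 genes were higher and 1 lower in every aged lung, against 11.6% and 24.2% of all genes), and aged lung 2 lay closest to the young mice. Without aged lung 2 both passed, with differences of 2.04 and 2.52 (adjusted p = 0.012 and 0.029 by limma).

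The rest of the set differed by little in the lung. Cd68, Itgax, Spp1 and Cd63 overlapped between the ages, with differences of 0.60, 0.55, 0.24 and -0.03. Lgals3 was higher in every aged lung by 0.35 ± 0.15, and Cd9 was lower in every aged lung, by a difference of -0.29 ± 0.10 (adjusted p = 0.20 and 0.13 by limma). The median difference of the 9 genes was 0.55 against -0.08 for all genes in the lung. Of 6 neutrophil genes tested there 1, Ngp, rose by the test, beside 2.72% of all genes (6 were higher at an unadjusted p under 0.05 by limma). In every aged lung 5 of the 6 were higher, against 11.6% of all genes. Their summed signal was 42.0 to 129 times the 75th percentile in the young and 157 to 1359 in the aged lungs, and their part in these values was not tested.

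In the kidney 8 of the 9 genes were higher and 1 was lower in every aged mouse, and the same 8 and 1 were past the threshold of the fit. Of all genes 20.6% were past it as higher and 42.6% as lower, 23.1% were higher and 47.6% lower in every aged mouse, and nothing is read from these counts, since the kidney was used to choose the set. Gpnmb was called above background in 0 of 3 young kidneys (-7.81, -7.45 and -7.49) and stood at 1.85, 0.60 and 0.17 in the aged. Set against the dimmest signals that still counted as above background on the young arrays, this is at least 79.6-fold higher. That bound holds for the processed signal only. With normexp background correction the log2 difference was 5.25, which lies below it. Trem2 went from -4.07, -4.26 and -4.80 to 2.96, 2.58 and 2.30, and Tyrobp from 0.81, 0.84 and 0.82 to 4.69, 4.33 and 3.98. The young kidneys had an SD of 0.01 for Tyrobp. The differences were 6.99 ± 0.25 for Trem2 and 3.51 ± 0.18 for Tyrobp.

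Itgax and Cd68 differed in the kidney by 4.05 ± 0.18 and 3.67 ± 0.20. Spp1, which tubule cells also make, stood between 5.93 and 6.03 in the young and between 8.12 and 8.19 in the aged kidneys, a difference of 2.17 ± 0.08. Lgals3 differed by 1.75 ± 0.14 and Cd9 by 0.85 ± 0.10. Cd63 was the exception: it stood between 7.89 and 8.04 in the young and between 7.43 and 7.62 in the aged, a difference of -0.46 ± 0.09 that turned to 0.11 under quantile normalization and shrank to -0.091 under scaling to spike-in spots. The 5 genes of the tubule injury list were higher in all aged kidneys, among them Lcn2 by 5.82 and Havcr1 (KIM-1) by 6.08. Their summed signal was 1.99 to 2.48 in the young and 60.3 to 69.8 times the 75th percentile in the aged mice. Of the 5 markers of distal tubule and collecting duct, 4 were past the threshold as lower there, beside 42.6% of all genes. Calb1 led them at -2.58. The part of the tubule genes in the Spp1 and Lgals3 values was not tested.

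**Figure D2:**
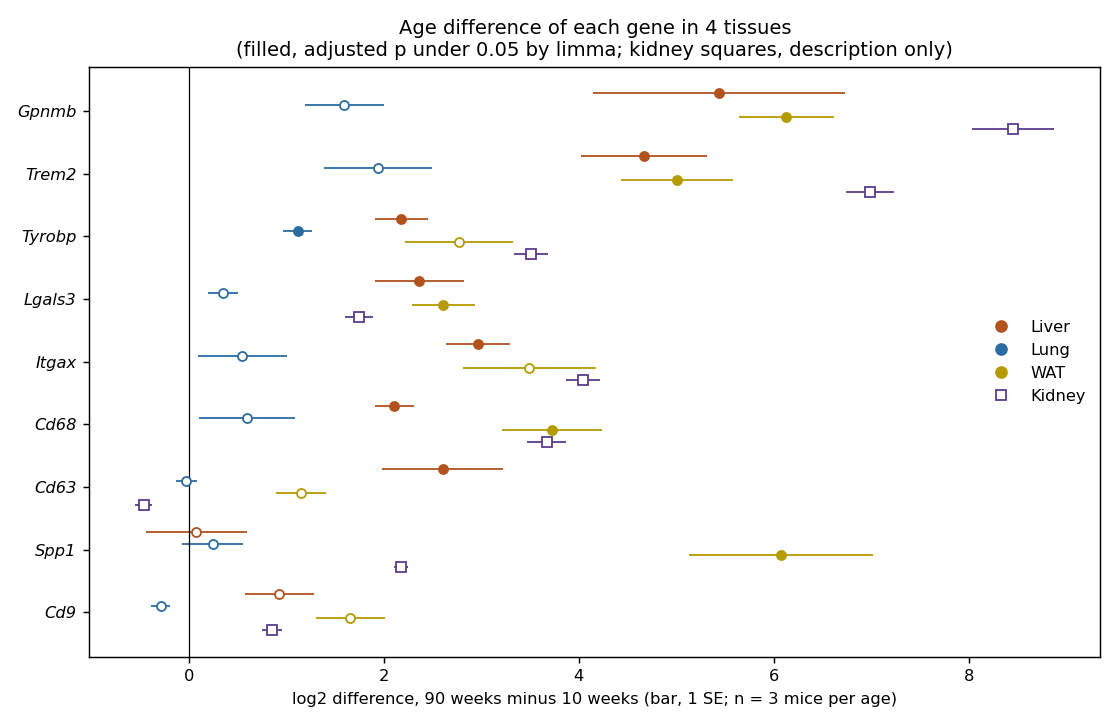
Difference in log2 signal between 90-week and 10-week mice for each gene, with bars of 1 SE from the limma fit (n = 3 mice per age); filled circles passed an adjusted p of 0.05, open circles did not, and kidney squares are a description. Gpnmb, at or near background in young livers and kidneys, and Trem2 have the largest differences in those tissues, Spp1 spans 0.08 in the liver to 6.08 in WAT, and the lung values lie between -0.29 and 1.94.

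Whether the age difference itself varied between tissues was tested for the liver, lung and WAT in 1 fit of all 24 arrays, which gave 27 tests of the 9 genes over 3 pairs of tissues. The fit treats all arrays as independent. Of the 27, 12 passed: 6 of liver against lung, 5 of lung against WAT and 1 of liver against WAT, where 16.8%, 3.23% and 18.9% of all genes passed. The age difference of Spp1 was lower in the liver than in WAT, with a difference between the age differences of -6.00 ± 0.91 (adjusted p = 0.00037 by limma), and lower in the lung than in WAT, by -5.83 ± 0.91 (adjusted p = 0.0017 by limma). Both held with every replicate number left out. The age difference of Cd63 was higher in the liver than in the lung, by 2.63 ± 0.57 (adjusted p = 0.0045 by limma), which also passed in all 11 other settings.

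The age differences of Gpnmb, Trem2, Itgax, Lgals3 and Cd9 were also higher in the liver than in the lung, by 3.84, 2.73, 2.42, 2.02 and 1.22 (adjusted p = 0.045, 0.037, 0.027, 0.0081 and 0.047 by limma). The value of Gpnmb fell to 1.67 with normexp, where it did not pass (adjusted p = 0.22 by limma). In 11 other settings, mice left out among them, Gpnmb and Cd9 passed in 4, Itgax and Trem2 in 6 and Lgals3 in 10. The age differences of Cd68, Itgax, Lgals3 and Cd9 were lower in the lung than in WAT, by -3.12, -2.95, -2.26 and -1.94 (adjusted p = 0.0067, 0.030, 0.014 and 0.013 by limma), and passed in 9, 6, 8 and 8 of the 11 other settings. Gpnmb and Trem2 missed the threshold in that pair at -4.53 ± 1.27 and -3.07 ± 0.86 (adjusted p = 0.058 for both by limma). Without aged replicate 1, the number of differences that passed fell from 12 to 5, and without young replicate 1, 2 or 3 to 5, 6 and 6. Between liver and WAT the other 8 genes did not pass, with differences between -1.61 and 1.46.

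**Figure D3:**
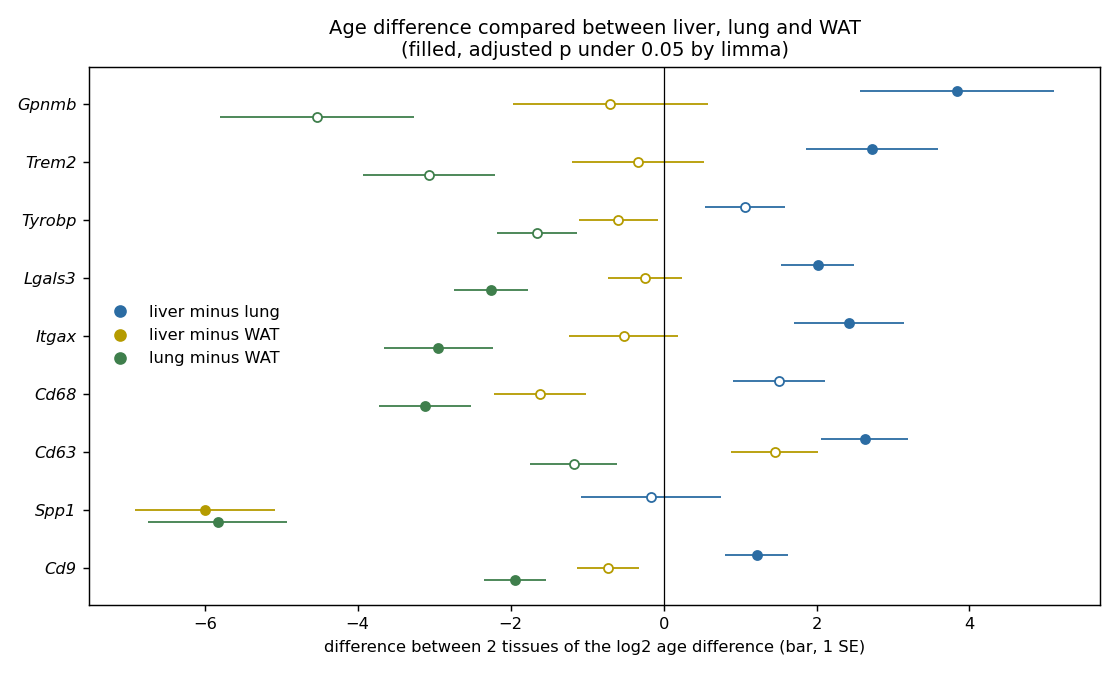
Difference between 2 tissues of the log2 age difference for each gene, with bars of 1 SE; filled points passed an adjusted p of 0.05. Spp1 sits near -6.00 for liver minus WAT and near 0 for liver minus lung, and Cd63 is positive for liver minus lung.

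The order of the young levels over tissues differed from gene to gene. These levels are a description, since slide and tissue cannot be told apart. At 10 weeks Trem2 was highest in WAT, followed by lung, liver and kidney, with means of 1.44, 0.00, -1.91 and -4.38. Gpnmb overlapped between young WAT and lung, with means of 0.16 and -0.02. It was above background in 1 of 3 young livers and 0 of 3 young kidneys, so no order is given for those tissues. Tyrobp and Cd68 were highest in the lung and lowest in the kidney, with Tyrobp means of 4.28 and 0.82, and for both genes lung overlapped WAT and WAT overlapped liver, while kidney stood below. Itgax in the young lung, at 2.57, was 2.60 above the next tissue, WAT. Cd63 and Spp1 had their highest young levels in the kidney, at 7.98 and 5.99, and Cd9 in the lung, at 5.61.

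At 90 weeks WAT ranked first for 6 genes (Gpnmb, Trem2, Tyrobp, Lgals3, Itgax and Cd68), and for 5 of them no aged WAT overlapped the next tissue. Itgax was the exception, with aged WAT at 3.46 and aged lung at 3.12, which overlapped. Gpnmb in aged WAT, at 6.29, lay 4.72 above aged lung, the next tissue, while lung, kidney and liver, at 1.57, 0.88 and 0.08, overlapped with their neighbours. The aged kidney was at or near the level of the aged lung and liver for Trem2, at 2.61 against 1.95 and 2.76, although the young kidney had the lowest level of the 4 tissues. Spp1 kept its highest level in the kidney, at 8.17, which was 4.32 above the aged lung. Cd63 was also highest in the aged kidney, at 7.52, but there it overlapped with aged WAT, at 7.14.

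Partners of these genes were then counted in lists of 76 genes by role. In the TREM2-TYROBP signalling list of 16 genes, 12 rose in the liver, 7 in the lung and 4 in WAT, and 0 fell in any of these (1 in the liver at an unadjusted p under 0.05 by limma), with medians of 1.82, 0.86 and 1.85. Over all genes 10.5%, 2.72% and 2.01% rose in liver, lung and WAT, and 17.0%, 2.89% and 0.579% fell. Trem3, a receptor that also signals through TYROBP, rose by 2.79 in the lung (adjusted p = 0.028 by limma). In the liver Trem3 and Pik3cg, a phosphoinositide 3-kinase of leukocytes, were above background in 0 of 3 young mice and in every aged one, which gives only bounds of at least 7.88-fold and at least 5.07-fold higher. Both are among the 12 and could hardly have failed to differ. Vav1, an exchange factor downstream of SYK, rose by 2.69 there. Hcst (DAP10), the sister adaptor of TYROBP, rose by 1.62 in the lung and 2.51 in WAT, and Syk itself by 1.30 and 1.87. Lat2, a leukocyte adaptor, rose most of the list in WAT, by 3.69. In the kidney 13 of the 15 tested genes were past the threshold as higher, beside 20.6% of all genes, with Syk at 3.68, Pik3cg at 3.46 and Vav1 at 3.31.

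The further lipid-associated macrophage genes, a list of 16 enzymes, cathepsins and fatty acid carriers, were less uniform. In the liver 5 rose and 1 fell, beside 10.5% and 17.0% of all genes, with a median of 0.78. Capg, an actin-capping protein, rose by 2.06, Fabp4, a fatty acid carrier, by 1.86, and Plin2, the lipid droplet coat protein, fell by 1.46. In WAT 5 rose and 0 fell, beside 2.01% and 0.579% of all genes, with a median of 1.32. Atp6v0d2, a proton pump subunit of macrophages and osteoclasts, rose there by 6.06 ± 0.53 (adjusted p = 0.0067 by limma), Mmp12, macrophage elastase, by 5.43 and Lipa, lysosomal acid lipase, by 3.05. In the lung 0 of the 16 passed (2 higher and 3 lower at an unadjusted p under 0.05 by limma). In the kidney the 3 largest differences were Mmp12 at 4.39, Capg at 2.50 and Lpl, lipoprotein lipase, at -2.02.

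The lysosome list, which holds the MiT transcription factors and lysosomal hydrolases, moved less. In the liver 4 of 15 rose, beside 10.5% of all genes, among them Tfec at 2.21 and Ctsa at 0.69. In WAT Tfec, the MiT factor most restricted to macrophages, was the single call, at 2.65. In the lung it was Ctsa, protective protein cathepsin A, at 0.76. Of all genes 2.01% rose in WAT and 2.72% in the lung. The medians were 0.15, 0.79 and 0.12 in liver, WAT and lung. In the kidney 3 of the 15 were past the threshold as higher and 8 as lower, beside 20.6% and 42.6% of all genes, and nothing is read from this. The median there was -0.38, and the 3 largest differences were Hexa at 1.18, Neu1 at -1.13 and Mcoln1 at -0.64. Under scaling to spike-in spots, which shifts the median of all genes by 0.37 in the kidney and 0.19 in the liver, 4 rather than 13 genes of the 6 lists were lower in the kidney.

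Of the tetraspanins and their partners 5 of 10 rose in the liver, beside 10.5% of all genes, led by Cd53 at 2.16, Cd37 (2.83-fold) and Igsf8 at 1.29. Cd53 and Cd37, a pair of tetraspanins of leukocytes, were also the 2 calls in the lung, at 0.91 and 1.35, and 0 of the 10 passed in WAT (4 higher and 1 lower at an unadjusted p under 0.05 by limma). Of the integrins and osteopontin receptors 6 of 10 tested rose in the liver, 3 of 11 in the lung and 2 of 11 in WAT. Over all genes 10.5%, 2.72% and 2.01% rose in these tissues. Itgb2 (CD18), the partner chain of Itgax, rose by 2.37 in the liver and 1.25 in the lung. Cd44, a receptor of osteopontin, rose by 2.21 in the liver, and Itga4 by 2.16 there and by 1.45 in the lung. Itgal rose by 1.52 in the lung and 1.39 in WAT, Itga9 fell by 0.67 in the lung, and Itgad was above background in 0 of 3 young and 3 of 3 aged WAT samples, at least 8.41-fold higher. Itgad is among the 2 WAT calls and could hardly have failed to differ. In the kidney Cd44, Itgb2 and Itga4 differed by 4.42, 3.21 and 3.04. Of the 7 genes of the galectin list tested in the liver, 1 rose and 1 fell. Over all genes 10.5% rose and 17.0% fell there, so nothing is read from these counts. They were Lgals3bp, a galectin-3 binding glycoprotein, which rose by 0.81, and Lgals9, which fell by 1.18. In lung or WAT 0 of the 8 passed (2 in the lung and 0 in WAT at an unadjusted p under 0.05 by limma). In the kidney Lgals3bp was 4.01-fold higher and Lgals9 and Lgals1 differed by 1.68 and 1.16, and Cd53, Ptgfrn and Cd37 by 3.56, 2.19 and 1.85.

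**Figure D4:**
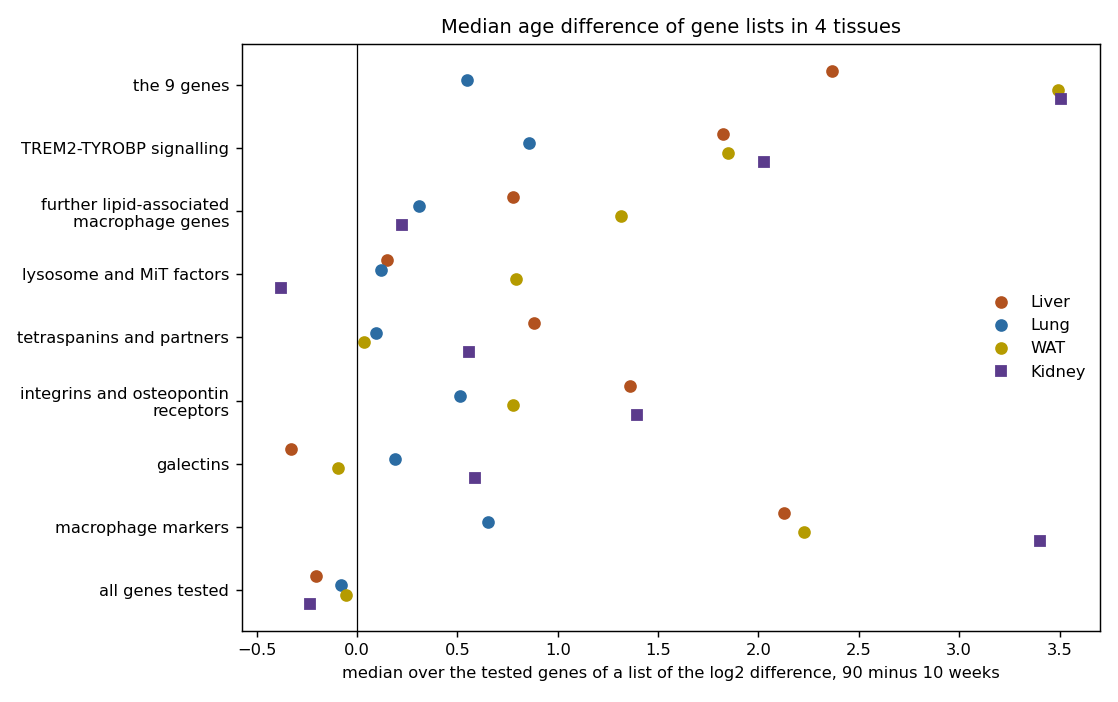
Median log2 difference, 90 minus 10 weeks, over the tested genes of each list, by tissue; circles are liver, lung and WAT, and squares are the kidney. The medians of the 9 genes and of the TREM2-TYROBP list lie above that of all genes tested in each tissue, and the galectin list lies near it in liver and WAT.

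Markers of macrophages were counted in the same way. Of the 14 macrophage markers 13 rose in the liver, where 10.5% of all genes did, with a median of 2.13. Their summed signal went from between 76.2 and 95.8 to between 269 and 334 times the 75th percentile. Cd14 rose by 2.61, Adgre1 (F4/80) by 2.54 and Cx3cr1 by 2.52. In WAT 3 of the 14 rose, beside 2.01% of all genes: Fcgr1 by 3.34, Adgre1 by 3.18 and Aif1 by 1.76. The median there was 2.22, and 11 of the 14 were higher in every aged mouse, against 13.7% of all genes. At an unadjusted p under 0.05 by limma 13 were higher and 0 lower. The sum was 57.9 to 176 in the young and 292 to 616 in the aged WAT. In the lung 2 rose, beside 2.72% of all genes: Spi1 by 1.13 and Laptm5 by 1.08. The median there was 0.66, and 3 of the 14 were higher in every aged lung, against 11.6% of all genes. The sums overlapped, at 58.5 to 61.2 in the young and 56.5 to 172 in the aged. In the kidney the sum was 30.6 to 33.9 in the young and 126 to 178 in the aged, with Fcgr1, Adgre1 and C1qa different by 4.27, 3.79 and 3.69. Of the 9 markers of resident macrophages 6 rose in the liver, with Vsig4, a complement receptor, at 2.50, Lyve1 at 1.85 and Cd5l at 1.61, and 1 in WAT, again Vsig4, by 5.76. The part of macrophage number in the differences of the 9 genes was not tested.

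Markers of other cells that express members of the set were checked beside them. Over all genes 10.5%, 2.72% and 2.01% rose in liver, lung and WAT, and 17.0%, 2.89% and 0.579% fell. Of the dendritic cell markers, which matter for Itgax, 2 rose and 1 fell in the liver (Clec9a by 2.01, Flt3 by 1.78 and Cd209a, which fell by 0.87), 0 passed in the lung (0 also at an unadjusted p under 0.05 by limma), and 1 fell in WAT (Itgae, which fell by 1.14). In the kidney 5 of the 6 tested were past the threshold as higher, beside 20.6% of all genes. Clec9a, Flt3 and Cd209a differed there by 2.51, 2.31 and 2.10. The alveolar macrophage list had 3 rises in the liver, Ear2 by 2.54, Ear1 by 2.39 and Siglecf, which was above background in 0 of 3 young livers, by at least 2.90-fold, and 0 calls in the lung (1 higher and 1 lower at an unadjusted p under 0.05 by limma). Siglecf is among the 3 rises and could hardly have failed to differ. Bile duct markers, which matter for Spp1 and Cd9, had 0 rises in the liver, lung and WAT, at an unadjusted p under 0.05 by limma too, and Krt7 and Krt19 fell in WAT by 2.50 and 2.42. In the kidney 2 of the 4 were past the threshold as higher, Krt19 at 4.15 and Cftr at 0.97. Melanocyte markers, which matter for Gpnmb, had 0 calls in these 3 tissues (2 lower in the liver, 1 higher in the lung and 2 lower in WAT at an unadjusted p under 0.05 by limma), and Tyr differed by -0.96 in the kidney. The platelet markers, which matter for Cd9 and Cd63, included Pf4, which rose by 4.89 in the liver, and Gp9, Itga2b and Ppbp, which rose by 1.96, 1.95 and 1.73 in the lung. B cell markers rose in WAT in 4 of 6 cases, among them Ms4a1 at 3.61 and Cd79b at 3.48, and in 1 case in the liver, Cd79b at 1.96. T and NK cell markers rose in 2, 3 and 2 cases in liver, lung and WAT: Nkg7 by 2.76 and Cd3d by 1.13 in the liver, Cd3d by 1.58, Cd8a by 1.24 and Cd3e by 1.23 in the lung, and Cd3d by 3.09 and Cd3e by 1.59 in WAT. The part of these cells in the values of the 9 genes was not tested.

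Across the 24 arrays, with the mean of each tissue subtracted, Trem2 had the pattern most like that of Gpnmb among 16787 named genes (Pearson r = 0.97). It was followed by Arl11, Pik3r5, Panx1 and Crlf2, with r of 0.96, 0.96, 0.95 and 0.95. Of the other members Itgax ranked 18th and Cd63 2707th. This measure holds the age difference, and 46.5% of the squared deviations of Gpnmb came from the kidney. With the mean of each tissue and age subtracted, the 5 most alike genes were Ydjc, Mybl1, Myo15, Foxd2 and Gm4907, with r between 0.78 and 0.85, and 77.6% of the squared deviations of Gpnmb came from the liver arrays. Cd63 then ranked 10th (r = 0.76) and Trem2 107th (r = 0.63). Among the 36 pairs of the 9 genes, Lgals3 and Cd63 were then the most alike (r = 0.88) and Itgax and Spp1 the least (r = -0.46). Gpnmb was not above background in the 3 young kidneys and 2 of the young livers, and the kidney was in view when the set was chosen. Arrays of a tissue share a slide, so these values are descriptions.

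**Figure D5:**
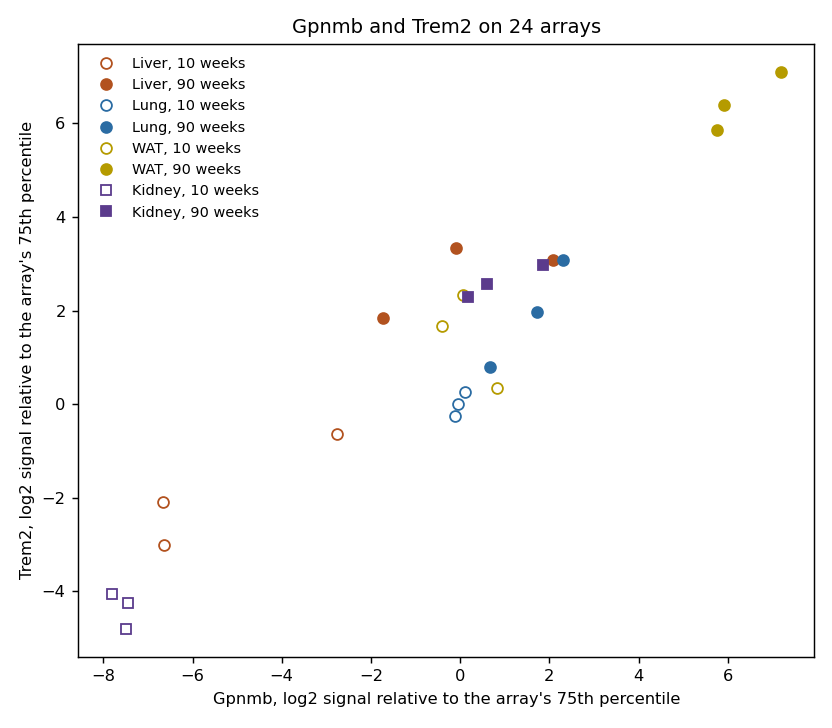
Gpnmb against Trem2 on each of the 24 arrays, as log2 signal relative to the 75th percentile of the array; open points are 10 weeks, filled points 90 weeks, and squares are the kidney. Young kidneys and young livers lie at the lower left, where Gpnmb was above background in 1 of these 6 samples, and the aged WAT samples lie apart at the upper right, at 5.76 or more for Gpnmb and 5.85 or more for Trem2.

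The aged mice of a tissue also differed among themselves across the set. Aged WAT 1 was the highest aged mouse for 8 of the 9 genes, with Spp1 the exception. Aged liver 4 was the lowest for 8, with Cd68 the exception, and aged lung 3 was the highest for 7. In the kidney aged mouse 1 was the highest for 8 genes and aged mouse 3 the lowest for 8, and Cd63 was in both the exception. Averaged over the 9 genes, the aged livers lay 2.64, 3.31 and 1.83 above the young mean, the aged lungs 0.58, 0.31 and 1.14, and the aged WAT samples 4.21, 3.13 and 3.53.

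Of the 9 genes, 3 had 2 probes. The second probes of Lgals3 and Cd68 differed with age by amounts near those of the brighter ones, such as 2.25 and 2.29 in the liver and 3.15 and 3.75 in WAT. The second Itgax probe was called above background on 0 of 6 liver arrays and differed there by 0.12, against 2.97 for the brighter probe. It was above background on 3 of 6 arrays in WAT and in the kidney. Its differences of 3.46 and 3.18 there rest on dim signals.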

How the data were processed

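Total RNA of liver, lung, kidney and WAT from 3 mice per age was labelled with Cy3 and hybridized to 1-colour Agilent arrays. The intensity values are the authors' own: per the file headers, Agilent Feature Extraction 11.0.1.1 wrote a background-subtracted processed signal for each of 62976 spots, not scaled between arrays. The headers give a mouse design (mm9), although a human array kit is named in the methods. Probe accessions without versions were matched to RefSeq genes (GRCm38.p6), used for names only: 32994 of 56605 probes (58.3%) gave 22911 symbols.

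From the deposited intensity, outlier spots (1841) were left out, log2 was taken, spots of a probe were averaged and each array's 75th percentile over non-control probes was subtracted. Probes well above background on 3 or more of the 6 arrays of a tissue were kept, with the brightest probe per gene. Within a tissue the ages were compared with lmFit and eBayes of limma 3.58.1 (R 4.3.3), with p-values adjusted by Benjamini-Hochberg over all its tested genes and called under 0.05. Tissues were compared by contrasts in a fit of all 24 arrays. The labels number the mice of a group and say no more of how separately they were handled, so p-values measure the spread between these samples, which may be technical. The number of arrays limits the precision.

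The 9 genes and the 6 pathway and 16 marker lists were chosen with earlier results of these data known. Genes to name were the 9 members, per list and tissue, up to 3 genes with the largest absolute difference among those called (kidney: among those tested), and the 5 genes most like Gpnmb; some markers are given by counts alone. S100a9 and Itga9 were named besides, after their values were seen, and 2 genes of the rule are not reported here. The steps were tested on simulated data. The alternatives were normexp, quantile normalization, scaling to 350 spike-in spots, median centring, no filter, other choices of probe, all arrays in 1 fit, a replicate block, the methods' unpaired test, and each mouse left out. A slide block was not run, since each tissue has 1 slide.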

Additional observations from a re-analysis of the deposited data

Results flagged for a closer look

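Of the age differences compared between the liver, lung and WAT, 12 differed between tissues in the test of the difference itself (limma, all 24 arrays), each given here as the first tissue minus the second on the log2 scale. For liver minus lung these were Gpnmb at 3.84 (1.67 with normexp, not passing at an adjusted p of 0.22 by limma; 2 of 3 young livers were not above background), Trem2 at 2.73, Cd63 at 2.63, Itgax at 2.42, Lgals3 at 2.02 and Cd9 at 1.22. For lung minus WAT they were Spp1 at -5.83, Cd68 at -3.12, Itgax at -2.95, Lgals3 at -2.26 and Cd9 at -1.94. For liver minus WAT it was Spp1 at -6.00. The kidney was left out of these tests because it was used to choose the genes. Each group holds 3 mice, so no test for a single mouse far from its group was made.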

How the results depend on the processing

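Members that passed numbered 7 in the liver, 5 in WAT and 1 in the lung. Leaving out 1 mouse gave 4 to 8 in the liver, 1 to 5 in WAT and 0 to 3 in the lung. No filter on dim probes gave 0 in the lung. All 24 arrays in 1 fit gave 8 in WAT and 0 in the lung. The methods' t-test with adjustment gave 4, 0 and 0 in liver, WAT and lung. The replicate block gave 1 in WAT and 0 in the lung. The labels do not say whether the numbers pair the mice. Deviations of same-numbered young and aged mice correlated between -0.17 and 0.18, and those of other young and aged mice between -0.19 and 0.25. The block left 7 in the liver, but young liver 3 and aged liver 4 share no number. The age difference then rests on the livers numbered 1 and 2, so this count cannot decide whether the numbers pair the mice. Rises in the 6 lists numbered 33 in the liver (replicate block 19, methods' test 20), 13 in the lung (no filter 5, block 0, methods' test 1, mice left out 0 to 17) and 12 in WAT (no filter 5, block 3, methods' test 0, all arrays 40, mice left out 1 to 5). Falls numbered 2 in the liver (normexp 4, spike-in 0, no filter 5, mean of probes 4, block 0, methods' test 0, all arrays 4, mice left out 0 to 2), 1 in the lung (normexp 2, no filter, block and methods' test 0, mice left out 0 to 1), 0 in WAT (all arrays 2) and, as a description, 13 in the kidney (quantile 8, spike-in 4, all arrays 8). The kidney median of 3.51 moved to 3.88 with spike-in scaling. Of 27 tests of differences between tissues 12 passed, and 5 to 14 with a mouse number left out. With mice left out Spp1 in the liver ranged from -0.376 to 0.533 (below 0 without young liver 1 or 2 or aged liver 2), Cd63 in the lung from -0.105 to 0.051 (above 0 without aged lung 1) and Spp1 in the lung from -0.089 to 0.535 (below 0 without aged lung 2), and Cd63 in the kidney turned to 0.11 with quantile normalization. The cause of these changes was not tested. Signals near background, as for Gpnmb in young liver and kidney, give only a bound.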
